A study of Mus musculus with 3 samples.

Results

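The genes described here handle iron in macrophages. The 10 genes were chosen by symbol out of 55536 annotated genes, of which 22015 are protein-coding and nuclear. They cover iron storage (Ftl1, Fth1 and the ferritin receptor Ncoa4), iron import and movement across membranes (Tfrc, Slc11a1, Slc11a2), iron export (Slc40a1), heme breakdown (Hmox1) and the iron regulatory proteins (Aco1, Ireb2). All 10 matched 1 annotated gene each and were measured in every library.

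Macrophages were grown from bone marrow of C57BL/6J mice, and RNA of their cytosolic fraction was sequenced. The cells had received lipid A at 100 ng/ml over 25 minutes. Lipid A is the membrane anchor of bacterial lipopolysaccharide and activates the receptor TLR4. The 3 libraries were biological replicates of this single group, made from 1 µg of RNA each after removal of ribosomal RNA. No untreated cells and no other fraction were analysed here, so no value below is a response to lipid A. The labels name 1 donor record for the 3 libraries, give neither sex nor age, and do not say whether the replicates came from separate animals. The spread between libraries may therefore be partly technical.

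Macrophages take up iron from transferrin and from the red cells they engulf, store it inside shells built of ferritin heavy and light chains, and return it to plasma through ferroportin. Much of this is controlled on the mRNA. The proteins encoded by Aco1 and Ireb2 bind a small hairpin, the iron responsive element, when iron is scarce. Binding near the start of an mRNA blocks its translation, as known for the ferritin chains and ferroportin, and binding in the 3′ untranslated region of the transferrin receptor mRNA protects it from decay. The level of an mRNA is therefore not a measure of its protein.

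The hairpin sequences are shown first. The search for them groups the 10 genes by sequence match, which is not a measure of this control. Transcripts of the GENCODE M21 annotation (mm10) were searched on the sense strand for a bulged C, 5 bases of any kind, CAGTG and 1 further base, the last 6 forming the loop. Pairs were counted between the 5 bases before the loop and the 5 bases after it, with G and T counted as a pair. A match has 5 pairs unless 4 are stated. In each 29-base sequence below, written 5′ to 3′, capitals mark the bulged C and the loop. Each sequence includes 6 bases on either side of the match, and the positions given are those of all 29 bases. Matches in the 5′ untranslated region were found in Ftl1 (chr7:45459779-45459807, minus strand), Fth1 (chr19:9982732-9982760, plus strand) and Slc40a1 (chr1:45925465-45925493, minus strand).
Ftl1: gtcttgCttcaaCAGTGTttgaacggaac
Fth1: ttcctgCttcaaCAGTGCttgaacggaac
Slc40a1: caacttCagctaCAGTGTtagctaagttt

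The 29 bases shown began at base 78 of the transcript Ftl1-201, base 87 of Fth1-201 and base 90 of Slc40a1-201. The Ftl1 and Fth1 sequences were the same at 26 of 29 bases and differed at positions 1, 4 and 18, counted from the first base shown. The bulged C, the 5 bases after it and the loop were shared apart from the last loop base.

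Tfrc held 4 matches in its 3′ untranslated region, all on the plus strand of chromosome 16 and all within 520 bases. They lay at chr16:32631219-32631247, chr16:32631598-32631626, chr16:32631663-32631691 and chr16:32631710-32631738, and are given in that order.
Tfrc match 1: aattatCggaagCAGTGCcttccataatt
Tfrc match 2: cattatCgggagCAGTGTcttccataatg
Tfrc match 3: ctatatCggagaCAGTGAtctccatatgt
Tfrc match 4: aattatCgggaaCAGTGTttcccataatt

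In Slc11a2, only the transcript Slc11a2-205 held a match in its 3′ untranslated region (chr15:100395153-100395181, minus strand), and it had 4 paired bases.
Slc11a2-205: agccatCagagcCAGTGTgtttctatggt

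The other 5 genes (Hmox1, Slc11a1, Ncoa4, Ireb2 and Aco1) had no match with 4 or 5 pairs in an untranslated region. A match with 4 pairs in the coding sequence of Slc11a1 is not counted here. The letters alone were common, present in 55.6% of 58797 protein-coding transcripts. With 5 pairs, a match was in the 5′ untranslated region of 0.102% of these transcripts and in the 3′ untranslated region of 0.344%. The same hairpin searched on the opposite strand was found in 0.838%, against 0.961% anywhere on the sense strand. With 4 pairs or more, as for Slc11a2-205, the shares were 0.578% in the 5′ and 2.30% in the 3′ untranslated region. A match describes the letters and was not tested as a binding site.

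The depth was 53055764, 43620362 and 38623777 expected counts in replicates 1, 2 and 3, so 3 counts equal 0.0566, 0.0689 and 0.0777 CPM, the unit of counts scaled by library size. Floors and intervals here cover counting error only. The cells carried macrophage markers: 10 of 10 were at 1 TPM or more in every library, with a median of 92.3 TPM (the deposited unit, scaled for transcript length and library). Of 9 matched erythroid markers, Epor alone reached that level (1.82 ± 0.32 TPM, SD, n = 3), and Hbb-bs, Hbb-bt and Slc4a1 had 0 counts. Of 5 B cell markers 0 reached it, and of 5 T cell markers Cd4 alone did (23.5 ± 2.29 TPM), with Cd3e at 0, 1 and 1 counts. Of 10 neutrophil markers 4 reached it, and they are given with the uptake genes below. Replicate 2 stood apart from the others: the common coefficient of biological variation from edgeR was 15.2% over 12744 genes and 10.03% without it. Values of the genes whose spread this library carries are also given without it, a choice made after seeing the data.

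All 10 genes reached 1 TPM in every library, against 41.3% of protein-coding nuclear genes. In order of mean TPM they ran Ftl1, Fth1, Tfrc, Slc40a1, Ncoa4, Hmox1, Slc11a1, Slc11a2, Aco1 and Ireb2, and the span from the first to the last is drawn in the plot of levels by library. Of the 9 neighbours in this order, 7 kept 1 direction in all 3 libraries. The exact sign-flip permutation test (two-sided) gave p = 0.25 for each of these 7, which is the smallest p that 3 libraries allow, and 0.321 after Benjamini-Hochberg adjustment over the 9 pairs. The order was set from the same values as the directions, and the design cannot reach 0.05. The exceptions were Tfrc with Slc40a1 and Hmox1 with Slc11a1. The ranges over the libraries did not overlap in 5 of the 9 pairs. In bulk RNA, fewer cells expressing a gene and less RNA per cell cannot be told apart.

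**Figure D1:**
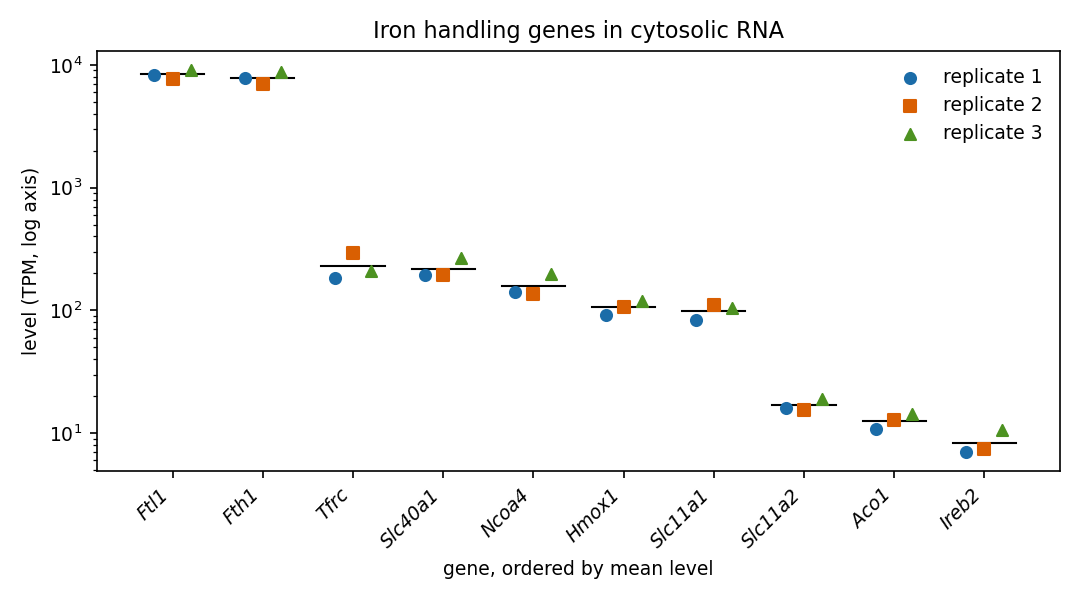
Level of each of the 10 genes in TPM on a log axis, with 1 point per library and a line at the mean of the 3 libraries (n = 3). Ftl1 and Fth1 lie between 6992 and 9106 TPM in every library, and all other genes are at or below 294 TPM.

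Ferritin mRNA stood far above the rest. Ftl1, which encodes the ferritin light chain (minus strand of chromosome 7, 45457944 to 45459884), measured 8264, 7726 and 9106 TPM in replicates 1 to 3, or 8365 ± 695 TPM (SD, n = 3). Fth1, the heavy chain whose ferroxidase activity loads iron (chromosome 19, 9980598 to 9985098, plus strand), was at 7803, 6992 and 8709.9 TPM, or 7835 ± 859 TPM. In both genes replicate 3 was highest and replicate 2 lowest, and the ranges of the 2 genes overlapped.

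Within each library Ftl1 was above Fth1, by 1.06-fold, 1.105-fold and 1.05-fold. The log2 ratio was 0.10 ± 0.04 (SD, n = 3; exact sign-flip permutation p = 0.25, two-sided). The chains were thus near parity as mRNA per length. Together they took 2.28, 1.99 and 2.03% of all gene counts, and 7.09, 6.44 and 5.99% of the TPM of protein-coding nuclear genes. Among the 10 genes, ferritin made up 95.02 ± 0.65% of the summed TPM.

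By their TPM over the 3 libraries, the protein-coding nuclear genes nearest to Ftl1 were Fth1 (Euclidean distance of log2(TPM + 0.1) 0.18), Psap (1.25) and Lyz2 (1.44). For Fth1 they were Ftl1, Psap (1.095) and Lyz2 (1.27). Psap encodes a lysosomal activator protein and Lyz2 encodes lysozyme. The distance reflects mainly the level, since 3 libraries hold little pattern.

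Ferritin has many copies in the mouse genome, and reads can be shared with them. Ftl1-ps1 (chromosome 13, 74399694 to 74407346, plus strand), a near copy of Ftl1 annotated as protein-coding, was listed at 87.3, 82.4 and 181.7 TPM from alignments, but at 5.54, 3.13 and 9.54 TPM in the alignment-free tables. Of the counts on Ftl1 and its 3 copies, the copies held 1.00% (exact 95% interval 0.981 to 1.03), 1.02% (0.987 to 1.04) and 1.88% (1.84 to 1.93) from alignments. In the alignment-free tables they held 0.148, 0.158 and 0.485%. Both methods put replicate 3 highest. Adding the copies to their parent genes moved the log2 ratio of Ftl1 to Fth1 to 0.12 ± 0.04. The 11 copies and relatives of Fth1 held 0, 4 and 1 counts from alignments.

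Ncoa4 encodes the receptor that carries ferritin to lysosomes for breakdown (chromosome 14, 32159865 to 32179855, plus strand). It was at 140.35, 135.5 and 197 TPM, or 158 ± 34.4 TPM (SD, n = 3). Replicate 3 was high, but with counts scaled by TMM, a method that centres most genes, the levels were 693, 600.3 and 729 CPM. Ftl1 exceeded Ncoa4 by 58.8-fold, 57.0-fold and 46.1-fold.

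Among the import genes, Tfrc led. Tfrc encodes transferrin receptor 1, which brings in iron bound to transferrin (chromosome 16, 32608920 to 32632794, plus strand). It was at 183, 294 and 209 TPM, or 229 ± 58.0 TPM (SD, n = 3), and at 1603, 2381 and 1355 CPM. Replicate 2 was high on both scales.

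Slc11a1 encodes NRAMP1, a metal transporter of the phagosome membrane known for resistance to intracellular bacteria (chromosome 1, 74375195 to 74386062, plus strand). The Slc11a1 mRNA was at 83.25, 111 and 105 TPM, or 99.6 ± 14.4 TPM. Whether its protein works in the cells of this strain was not tested. Slc11a2 encodes DMT1, which moves iron out of endosomes after transferrin uptake (chromosome 15, 100387898 to 100425072, minus strand). It was at 15.97, 15.5 and 19.0 TPM, or 16.8 ± 1.88 TPM. The ranges of the pair did not overlap, and Slc11a1 exceeded Slc11a2 by 5.19-fold, 7.08-fold and 5.51-fold in replicates 1 to 3 (exact sign-flip permutation p = 0.25, the smallest possible; 0.313 adjusted over the 5 ratios tested between genes of related function).

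Export was represented by Slc40a1, which encodes ferroportin, the cellular iron exporter (chromosome 1, 45908068 to 45926523, minus strand). It was at 193, 193 and 265 TPM, or 217 ± 41.9 TPM (SD, n = 3). On the CPM scale it was even, at 1172, 1105 and 1204. Its ratio to Tfrc did not keep a direction: Slc40a1 was 1.05-fold above Tfrc in replicate 1, lower in replicate 2 at 0.657 of the Tfrc level, and 1.27-fold above in replicate 3. The log2 ratio of Slc40a1 to Tfrc was -0.06 ± 0.49 (exact sign-flip permutation p = 1, two-sided). Without replicate 2, Slc40a1 stood above Tfrc and all 9 neighbours in the order kept 1 direction. Replicate 2 alone went the other way for Tfrc with Slc40a1 and for Hmox1 with Slc11a1. This outcome therefore follows from leaving that library out and is no further evidence for the order.

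Hmox1 encodes heme oxygenase 1, which opens the heme ring and releases its iron (chromosome 8, 75093621 to 75100589, plus strand). It was at 92.45, 107 and 119.7 TPM, or 106 ± 13.6 TPM (SD, n = 3), and at 248, 270.1 and 243 CPM. Hmox1 and Slc11a1 could not be placed in order, with Hmox1 higher in 2 of 3 libraries (log2 ratio 0.10 ± 0.12, exact sign-flip permutation p = 0.5). The genes nearest to Hmox1 in TPM over the 3 libraries were Tuba1b (distance 0.06), Msn (0.09) and Timp2 (0.10).

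The iron regulatory proteins had the lowest mRNA levels of the 10 genes. Aco1, which encodes a protein that is a cytosolic aconitase when it holds an iron-sulfur cluster and binds RNA without it (chromosome 4, 40143081 to 40198338, plus strand), was at 10.8, 12.8 and 14.2 TPM, or 12.6 ± 1.71 TPM (SD, n = 3). Ireb2, whose protein is degraded when iron is plentiful (chromosome 9, 54863789 to 54912530, plus strand), was at 7.09, 7.42 and 10.6 TPM, or 8.37 ± 1.94 TPM. Their ranges did not overlap. Aco1 exceeded Ireb2 by 1.52-fold, 1.71-fold and 1.34-fold within libraries.

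Between libraries the median spread of the 10 genes was near that of all genes. The median SD of log2 CPM was 0.118 over the 10 genes and 0.127 over all 12744 genes tested. Slc40a1 had the smallest SD (0.06), followed by Aco1 and Hmox1 (0.08 each). Fth1 and Ftl1 were at 0.13 each, with replicate 1 highest in both. Slc11a1 (0.19) and Ncoa4 (0.145) had a larger SD than 67.8 and 56.4% of genes. Tfrc had the largest SD, 0.42, which exceeded that of 88.3% of genes. Without replicate 2 the SD of Tfrc was 0.17, larger than that of 76.4% of genes and close to that of Ftl1 (0.17), and the medians were 0.0831 over the 10 genes and 0.0807 over 12916 genes.

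**Figure D2:**
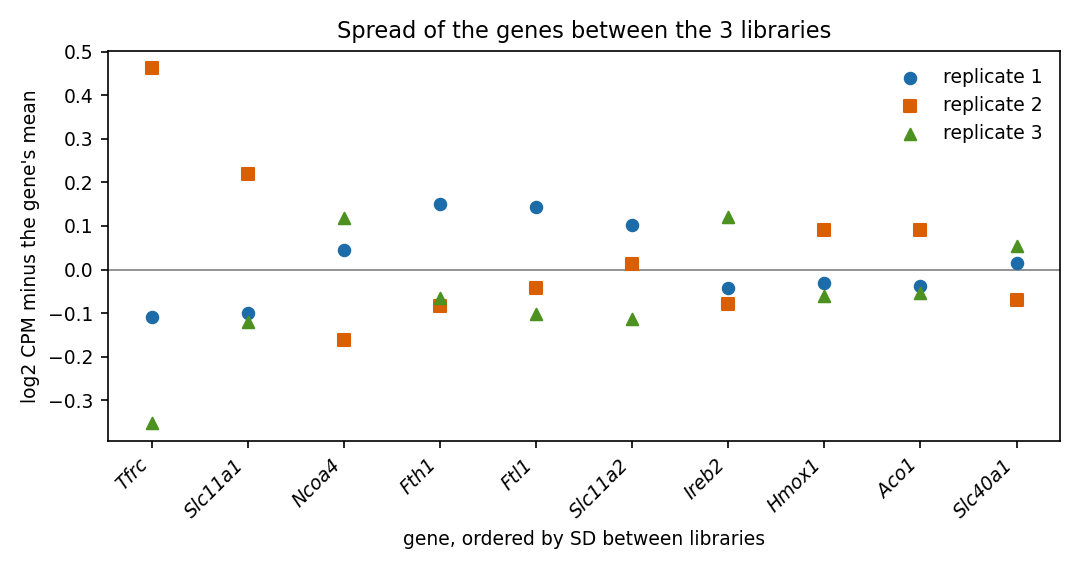
Deviation of each library from the gene's mean, in log2 CPM after TMM scaling, for the 10 genes ordered by their SD over 3 libraries; each point is 1 library. Tfrc is high in replicate 2 and low in replicate 3, and the other genes stay closer to 0.

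Pairs of libraries were compared with a limit of 1.5-fold, with no test since each side is 1 library. Tfrc was 1.76-fold lower in replicate 3 than in replicate 2, where 10.1% of all genes were lower by more than 1.5-fold. None of the other 9 genes passed the limit in this pair. In the other direction (4.49% of all genes) and in replicate 2 against 1 (8.42% higher, 1.92% lower) and replicate 3 against 1 (3.16% higher, 2.77% lower), 0 of the 10 genes passed. Tfrc was 1.49-fold higher in replicate 2 than in replicate 1, just under the limit, and passed it with scaling by library size alone. Without replicate 2, Tfrc differed by 1.18-fold between the other libraries.

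Some genes of dividing cells were also highest in replicate 2, as were 39.4% of all genes tested. They were picked after the Tfrc values had been seen. Mki67, a marker of cycling cells, was at 50.4, 99.1 and 54.8 CPM in replicates 1 to 3, and Top2a, a topoisomerase of dividing cells, at 23.8, 55.5 and 23.5 CPM. Mcm2, a replication helicase subunit, was at 19.6, 27.3 and 17.2 CPM, and Pcna, the replication clamp, at 153, 163 and 131 CPM. Their part in the Tfrc values was not tested.

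TPM and CPM placed the libraries differently. In TPM, 8 of the 10 genes were highest in replicate 3 and 2 in replicate 2. After TMM scaling of counts, 3 were highest in replicate 1, 4 in replicate 2 and 3 in replicate 3, where 26.6, 39.4 and 34.0% of all genes tested were highest. Protein-coding nuclear genes held 22.7, 22.9 and 29.8% of the TPM in replicates 1 to 3, and TPM of every gene is set by this share too. Ratios between genes within a library do not depend on it.

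Transcripts were compared as shares of each gene's TPM in the alignment-free tables. A single transcript held most of it in these genes: Hmox1-201 with 99.6 ± 0.31% (SD, n = 3), Ftl1-201 with 99.0 ± 0.23%, Ireb2-201 with 98.3 ± 1.05%, Aco1-201 with 97.5 ± 1.70% and Slc40a1-201 with 94.98 ± 0.57%. Fth1-201 (95.6 ± 6.33%) and Tfrc-201 also held most of their gene's TPM and are taken up below. Ftl1-201 and Slc40a1-201 carry the 5′ hairpin sequences printed above, as do some minor forms of both genes.

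Slc11a2 was split between forms with different 3′ ends. Slc11a2-201, which lacks the hairpin match, held 53.3, 53.2 and 55.5% of the gene's TPM in replicates 1 to 3. Slc11a2-205, which has it, held 22.4, 22.8 and 22.8%. Slc11a2-205 has 2707 bases that Slc11a2-201 lacks (chromosome 15, 100392563 to 100395269), and the match lies among them. As a share of both forms together, Slc11a2-205 was 29.6 ± 0.44% in the alignment-free tables and 30.7 ± 0.19% from alignments (SD, n = 3). The form without the match was 2.38 ± 0.05 times the other in the first and 2.26 ± 0.02 times in the second. A further form annotated for nonsense-mediated decay, Slc11a2-204, held 11.6 ± 0.65% in the alignment-free tables but 5.04 ± 2.26% from alignments, on at most 46.1 counts and with no base that Slc11a2-201 lacks.

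**Figure D3:**
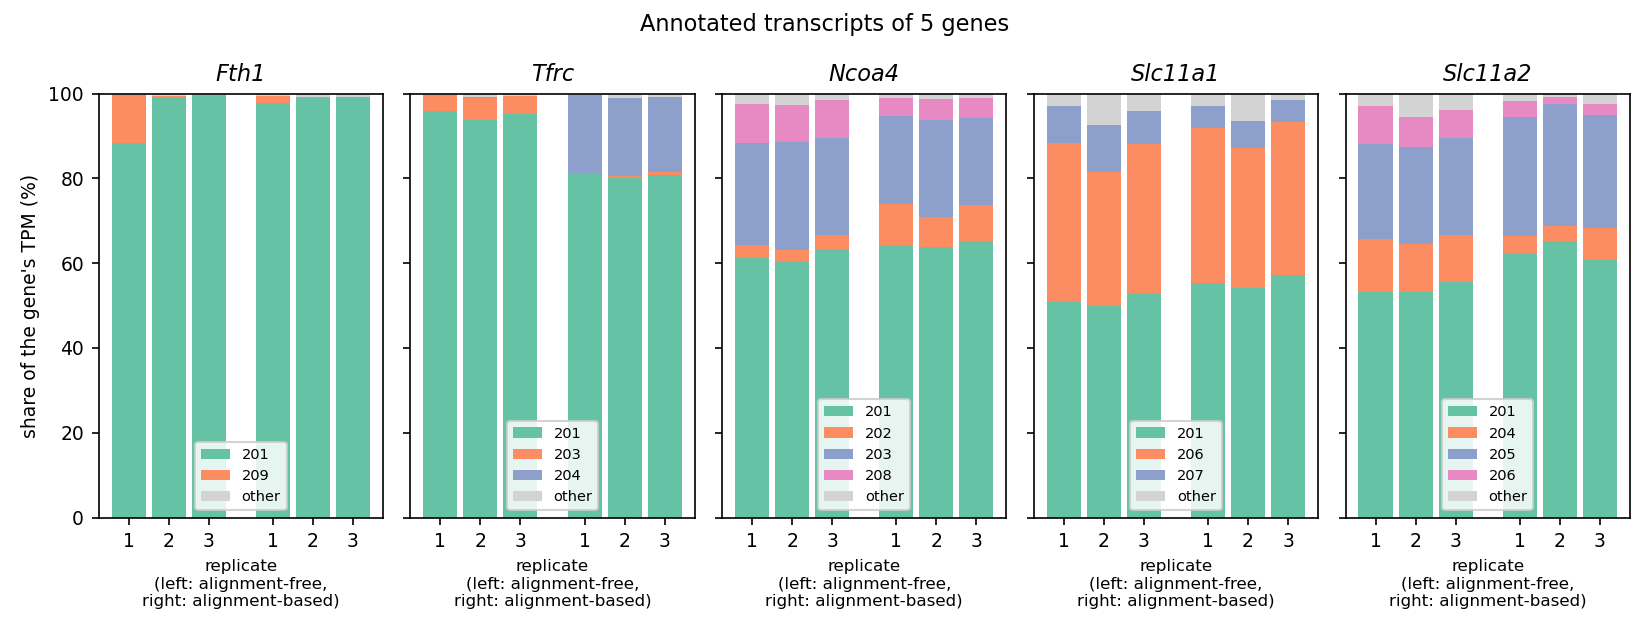
Share of the gene's TPM on each annotated transcript (percent, named by its number) in replicates 1 to 3, for 5 genes, with the alignment-free tables on the left and the alignment-based tables on the right of each panel; grey is the sum of all other transcripts. The methods differ most in Tfrc-204, and Fth1-209 is visible mainly in replicate 1.

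Slc11a1-201, the full coding form, held 51.3 ± 1.56% of the gene's TPM, and the noncoding Slc11a1-206 held 34.7 ± 2.76%. Slc11a1-206 is 378 bases long with 146 bases that Slc11a1-201 lacks, and it rested on 572, 548 and 463 counts against 10018, 10075 and 7647 for Slc11a1-201. TPM divides by length, so its share of TPM is larger than its share of counts. Ncoa4-201 held 61.7 ± 1.54% and the short coding form Ncoa4-203, which has 150 bases that Ncoa4-201 lacks (chromosome 14, 32166121 to 32166270), held 24.1 ± 1.19% on 994, 824 and 852 counts.

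The methods disagreed on Tfrc. Tfrc-201, the coding form with the 4 hairpin matches, held 94.9 ± 1.04% in the alignment-free tables and 80.8 ± 0.62% from alignments. The difference lay on Tfrc-204, annotated as a retained-intron transcript, with 0.0954 ± 0.0301% and 18.1 ± 0.37%. Tfrc-204 shares the 4 matches and all but 326 of its 3527 bases with Tfrc-201. The count of the whole gene differed little, being 1.07-fold higher in the alignment-free tables, against a median of 1.09-fold over 10307 genes. Over the 10 genes this ratio ran from 1.05-fold (Ftl1 and Fth1) to 1.101-fold (Slc11a2).

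Fth1 differed in 1 library. Fth1-201 held 88.3, 99.2 and 99.3% of the gene's TPM in replicates 1 to 3, and Fth1-209, a shorter coding form that also carries the hairpin match, held 11.3, 0.138 and 0.211%. From alignments Fth1-209 held 1.69, 0.0755 and 0.103%. It has 58 bases that Fth1-201 lacks (chromosome 19, 9984686 to 9984743), directly after the third exon. It had 36882.5, 310 and 458 estimated counts in the alignment-free tables and 5097, 160.2 and 208 from alignments. Both methods thus placed replicate 1 highest, by unequal amounts.

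Of the 10 genes, 9 have at least 1 annotated transcript with a retained intron, all but Aco1. The share of the gene's alignment-free counts on such transcripts was highest in replicate 2 for 8 of these 9, the exception being Slc11a2. It was 0.307, 0.930 and 0.202% for Slc40a1, 0.790, 2.32 and 1.00% for Slc11a1 and 0.846, 2.00 and 0.678% for Ireb2 in replicates 1 to 3. From alignments 7 of 9 were highest in replicate 2. How many of all genes with such a transcript were highest there was not counted, so the pattern cannot be called particular to these genes. Some shares rested on few counts, such as 9.59, 40.1 and 13.1 alignment-free counts for Hmox1. Summed over the 10 genes the alignment-free share was 0.276, 0.599 and 0.271%, and over all protein-coding nuclear genes it was 1.75, 2.56 and 1.74%. From alignments the sums were 1.12, 1.91 and 1.15% over the 10 genes and 1.52, 2.14 and 1.57% over all protein-coding nuclear genes. Over the 8 genes other than ferritin the share was 0.245, 0.529 and 0.216% alignment-free and 5.44, 7.25 and 4.76% from alignments. Most of the alignment-based counts in the sums over the 8 and the 10 genes lay on Tfrc-204, with 11402, 14357.5 and 7188 counts. Within Tfrc the alignment-based share was nearly level, at 13.7, 14.1 and 13.5%, while the counts of Tfrc itself were highest in replicate 2. The distance of the 8 and the 10 genes from the sum over all genes thus depended on the method. Replicate 2 was highest in each of these sums.

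**Figure D4:**
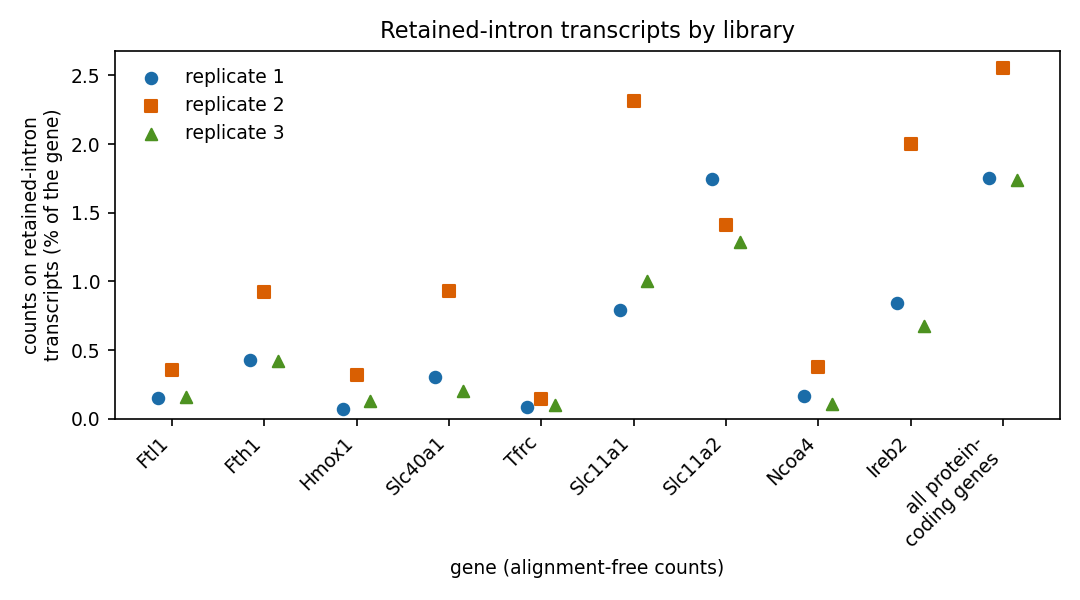
Share of the gene's alignment-free counts that lies on transcripts annotated as retained-intron (percent), with 1 point per library, for the 9 genes that have one and for all protein-coding nuclear genes summed. Replicate 2 is highest for 8 of 9 genes and for the sum. How many of all genes are highest there was not counted.

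Overlapping genes were a minor source of doubt. The model Gm10252 lies on the opposite strand across the start of Ftl1 and had 724, 382 and 633 counts, against 410685 or more for Ftl1. Gm5475, opposite the start of Slc11a2, had 8, 27 and 9 counts, and the microRNA model Gm22133 inside Ftl1 had 0. Reads of these pairs cannot be told apart, since no source used here says whether counting used strand.

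The wider iron pathway was read from 8 lists of 64 distinct genes, 63 of them matched in the annotation (Hjv was not). Of these, 45 reached 1 TPM in every library and 15 stayed below it in all 3. Of all protein-coding nuclear genes, 9084 of 22015 (41.3%) reached it, which is the share to set beside each list below. The median level of the 63 matched genes was 3.69 TPM, against 0.163 TPM over all protein-coding nuclear genes and 7.79 TPM over those that reached 1 TPM. The 10 genes above ranged from 8.37 to 8365 TPM. The median SD of log2 CPM over the 52 genes tested was 0.137.

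**Figure D5:**
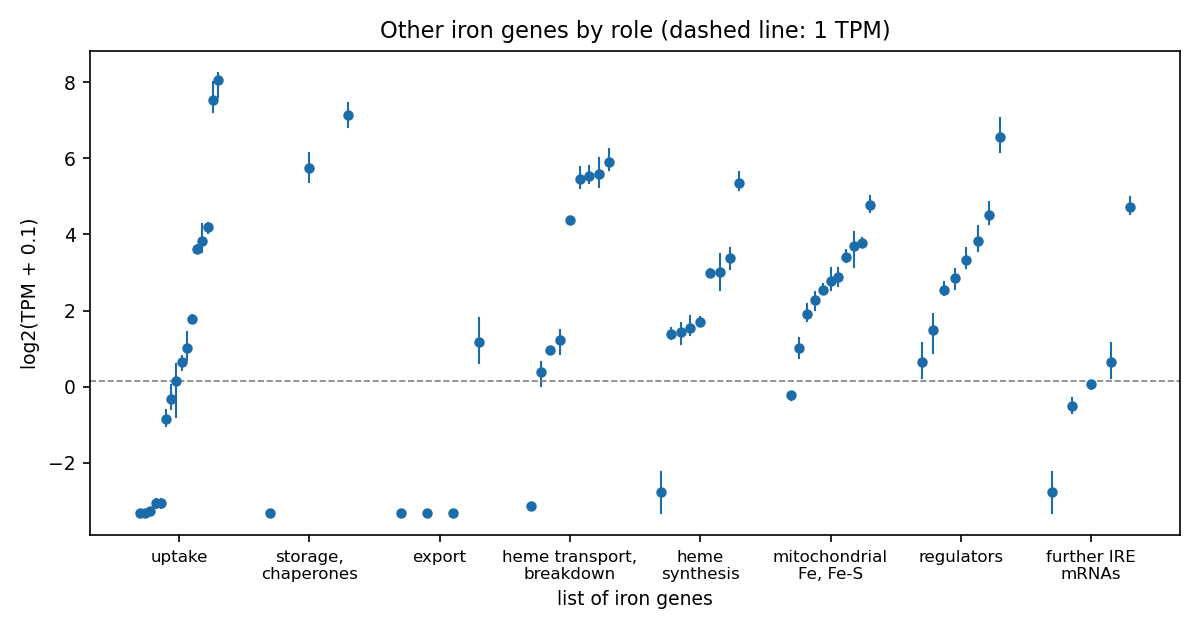
Mean level of each gene on the 8 lists as log2(TPM + 0.1), with a vertical line from the lowest to the highest library; Alas2 and Epas1 appear on more than 1 list. Uptake and export hold most of the genes near 0 TPM, at the bottom of the axis, and all 8 regulators lie above the dashed line at 1 TPM.

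Of 16 uptake genes, 8 were detected in this sense. Trf, which encodes transferrin, was at 268 ± 62.2 TPM (SD, n = 3), Lrp1, the receptor for heme bound to hemopexin, at 186 ± 61.8 TPM and Mcoln1, a lysosomal cation channel, at 18.1 ± 1.75 TPM. Steap4 and Cybrd1, which encode metal reductases, had at most 1 and 2 counts in a library. Lcn2 and Ltf, which encode iron-binding proteins of neutrophil granules, varied over 2-fold between libraries, with 2.37, 3.40 and 1.66 CPM for Lcn2 and 2.27, 6.04 and 1.33 CPM for Ltf. Without replicate 2 neither passed 2-fold, at 1.43-fold for Lcn2 and 1.71-fold for Ltf. The 10 neutrophil markers, Ltf among them, summed to 33.7, 55.8 and 40.3 TPM. Of these, 4 were detected, namely S100a9 (20.2 ± 6.22 TPM), S100a8 (12.3 ± 2.67 TPM), Mmp8 (5.25 ± 1.39 TPM) and Ngp (3.67 ± 2.22 TPM). Ly6g was at or under 0.03 TPM. The part of these markers in the values of Lcn2 and Ltf was not tested.

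The iron chaperone genes Pcbp2 and Pcbp1 were at 142 ± 32.5 and 53.8 ± 15.5 TPM, while Ftmt, mitochondrial ferritin, had 0 counts in every library. On the export list, Cp (ceruloplasmin, a plasma ferroxidase) was at 2.16 ± 1.06 TPM, and Heph, Hamp and Hamp2 had 0 counts. Hamp encodes hepcidin, the hormone that triggers degradation of ferroportin, and is made mainly by hepatocytes. All 5 hepatocyte markers, Hamp among them, had 0 counts.

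For heme, 7 of 9 transport and breakdown genes and 8 of 9 synthesis genes were detected. Blvrb, a biliverdin reductase, was at 60.0 ± 13.5 TPM, Hmox2, the constitutive heme oxygenase, at 47.7 ± 14.6 TPM and Slc48a1, the phagolysosomal heme transporter, at 46.1 ± 8.59 TPM. Flvcr2 was at 0.01 ± 0.01 TPM. Alas1, the first enzyme of heme synthesis, was at 40.75 ± 7.62 TPM, Fech at 10.3 ± 2.02 TPM and Urod at 7.997 ± 2.80 TPM. The erythroid form Alas2 was at or under 0.11 TPM in every library.

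Of 11 genes for mitochondrial iron and iron-sulfur clusters, 10 were detected, led by the scaffold gene Iscu at 27.1 ± 4.57 TPM, Isca1 at 13.6 ± 1.23 TPM and Hscb at 12.8 ± 4.01 TPM. All 8 regulators were detected. Nfe2l2, which encodes the activator NRF2, a factor known to act on ferritin and Hmox1, was at 95.3 ± 32.6 TPM, its counterpart Bach1, a heme-sensing repressor, at 22.7 ± 5.30 TPM and Hif1a at 14.2 ± 3.88 TPM.

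Among further mRNAs known for iron responsive elements, 2 of 5 were detected. Epas1, which encodes HIF2α, was at 1.46 ± 0.58 TPM and varied over 2-fold, at 12.3, 20.98 and 8.54 CPM in replicates 1 to 3, with replicate 2 high as for Tfrc. Without that library the difference of Epas1 was 1.44-fold. Cdc42bpa was at 0.947 ± 0.0757 TPM, and Cdc14a at 0.60 ± 0.10 TPM.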

How the data were processed

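Cytosolic RNA of 3 libraries of a single group was analysed. Per the file headers and the text records deposited with them, the authors quantified reads against GENCODE M21 on mm10 in 2 ways: from transcriptome alignments, and directly from the reads. The deposited expected counts and estimated counts are not normalized. The deposited TPM values are scaled by length and to a fixed sum over all targets. The posterior standard deviation of a count, also deposited by the authors, was not used for tests. Strandedness and tool versions: not given in the sources used here.

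Levels are alignment-based gene TPM. Of all expected counts, 99.8, 99.8 and 99.96% lay on gene rows, and the other rows entered neither library sizes nor tests. Rounded expected counts passed filterByExpr in edgeR 4.0.16 (R 4.3.3), where TMM gave the scaling and log2 CPM used a prior count of 2. The intercept was the only term, since a single group has no contrast. Order and ratios were tested by an exact two-sided sign-flip permutation test on log2(TPM + 0.1) or TPM ratios within libraries. The pseudocount understates differences of genes near 0. The edgeR scaling and dispersion step was tested on simulated counts.

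Sequences come from the GENCODE M21 transcripts. Python 3.11.15 with numpy 2.4.6, pandas 2.3.3, scipy 1.17.1 and matplotlib 3.10.9 did the remainder. The genes and lists were chosen with earlier results of these data known. Named were the 10 genes, the 3 highest and up to 2 genes below 1 TPM per list, genes varying over 2-fold at a mean count of 100 or more, ferritin copies, the 3 nearest genes of Ftl1, Fth1 and Hmox1, and transcripts with 10% or more of a gene's TPM. Not every gene this selects is printed, and some are not reported here. Alternatives were other quantification, scaling, thresholds, pseudocounts and filters, DESeq2 1.42.0 size factors, and leaving out each replicate.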

Additional observations from a re-analysis of the deposited data

How the results depend on the processing

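Levels in TPM depended on the total they were scaled to. In the alignment-free tables the mean TPM was Ftl1 2509, Fth1 2408, Hmox1 31.6, Slc40a1 64.3, Tfrc 66.8, Slc11a1 30.04, Slc11a2 6.07, Ncoa4 51.4, Ireb2 2.51 and Aco1 3.805. Rescaled to protein-coding nuclear genes it was Ftl1 33614, Fth1 31423, Hmox1 426, Slc40a1 862, Tfrc 932, Slc11a1 401, Slc11a2 67.4, Ncoa4 625, Ireb2 33.1 and Aco1 50.5. With both, a choice made after seeing the data, it was Ftl1 31583, Fth1 30059, Hmox1 408, Slc40a1 825, Tfrc 879, Slc11a1 391, Slc11a2 77.1, Ncoa4 657, Ireb2 32.4 and Aco1 49.2. The order of the 10 genes was the same with the alignment-free tables, both pseudocounts (1 and 0.01) and without replicate 1 or 3, and Tfrc and Slc40a1 changed places without replicate 2. From alignments, transcript shares in percent were Slc40a1-201 96.4, Slc11a1-201 55.5, Aco1-201 99.2, Ncoa4-201 64.4, Ncoa4-203 21.4, Slc11a2-201 62.8, Slc11a2-205 27.8, Slc11a2-204 5.04 and Tfrc-201 80.8. Scaled by library size, Tfrc passed 1.5-fold in 2 pairs of libraries in place of 1, and no other of the 10 genes did. The log2 ratio of Ftl1 to Fth1 ran from 0.07 to 0.11 with each replicate left out, and the median SD of log2 CPM of the 10 genes from 0.0831 to 0.111. Of the wider lists, 45 to 47 genes were detected with each replicate left out, 50 at 0.5 TPM and 30 at 5 TPM, against 45. At 1 TPM, 31 were detected in the alignment-free tables and 52 after rescaling. Protein-coding nuclear genes held 10.7, 6.27 and 6.54% of the alignment-free TPM in replicates 1 to 3, against 22.7, 22.9 and 29.8% from alignments. The same 1 TPM is thus a stricter limit in the alignment-free tables and a looser one after rescaling. No paired analysis was possible because the libraries form a single group. Depth limits only genes near the floor of 3 counts, none of them among the 10.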
